A study of Mus musculus with 41 samples.

Results

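The cytosines described here are the non-CpG cytosines of the amplicons sequenced at the mouse Il4 locus, that is, cytosines followed by A, C or T. They were chosen by sequence context and depth and not by their methylation: minus-strand cytosines of the Il4 amplicon window outside CG that had at least 100 reads in at least 1 naïve or Th2 sample. The first of them lies at position 53418904 and the last at 53440799 of chr11 (mm9), and all positions below are on that chromosome and build. The window held 633 cytosines with any read. Of its 568 non-CpG cytosines, 543 met the depth minimum and 25 did not, and 65 CpGs met it and are set beside them. At the edge of the rule, position 53419416 was just inside with 394 reads in its deepest sample and position 53419457 was just outside with 86.

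Methylation in mammalian T cells sits almost wholly at CpGs, where maintenance methyltransferases copy it after replication. Non-CpG methylation, mostly at CpA, is laid down by the DNMT3 enzymes and is best known from neurons, oocytes and embryonic stem cells. Bisulfite leaves 5-methylcytosine and 5-hydroxymethylcytosine as C and turns unmodified cytosine into T, so a non-CpG C read can be a modified base, an unconverted base or an error.

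The study asked how TET enzymes, which oxidise 5-methylcytosine, and TDG, which excises the oxidised bases 5-formylcytosine and 5-carboxylcytosine, act on DNA methylation while T cells divide. Amplicons of Il4, the cytokine gene switched on in Th2 cells, were read after bisulfite conversion (BS), after pyridine borane (PB), which makes 5-formylcytosine and 5-carboxylcytosine read as T, and by TAPS, in which TET oxidation comes before pyridine borane so that methylated cytosine reads as T. The values here come from 35 samples, 27 BS, 6 PB and 2 TAPS. Some are repeat runs of a library, which leaves 25 BS libraries, 4 PB libraries and 2 TAPS libraries.

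All mice were C57BL/6. Naïve CD4+ T cells without CD25, high in CD62L and low in CD44, were sorted from spleen and lymph nodes. Th2 cells were grown from them on plate-bound anti-CD3 and anti-CD28 with IL-4 and anti-IFN-γ, then in IL-2 (first cycle). A second cycle added rest and restimulation in the same conditions. BS covered naïve cells (3 libraries) and Th2 cells (3 libraries). The titles of these Th2 samples name no cycle, and they are taken as first-cycle cells here. TET iTKO cells came from Tet1/2/3 floxed mice with CreERT2 and a Rosa26-EYFP reporter, and TDG iKO cells from Tdg floxed mice with CreERT2 and a Rosa26 reporter of H2B-EGFP and GPI-mCherry. Tamoxifen was injected into Cre-carrying and control mice, and reporter-positive cells were sorted, so the WT controls of these lines had the drug too. Each genotype and its WT had 2 BS libraries in each cycle. The PB samples were first-cycle Th2 cells, 1 WT and 1 TDG iKO library from the CreERT2 line (2 runs each), and 1 WT and 1 TDG KO library from a line in which the Cd4 promoter drives Cre in T cells. The Gata3 samples were Th2 cells from Rosa26-Cas9 T cells with a retroviral guide against Gata3 (sgGata3-1 or sgGata3-2) or the empty vector (mock), with 1 library each. The methods do not describe the TAPS samples, 1 naïve and 1 Th2. No label names the animals, so the tests between groups measure the spread between libraries, and those of single libraries measure read counting alone.

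The BS libraries were read with 11 amplicons over 7 regions, and PB and TAPS with 8 that leave out CNS2, the 3′ enhancer of Il4. Of the 543 cytosines, 537 lay within amplicons, 146 were CHG and 397 were CHH (H is A, C or T). CNS1, a conserved element upstream of Il4, held 166 of them and 17 CpGs, and CNS2 held 134 and 17 CpGs. Exon 1 held 69, the intron 1 and exon 2 amplicon 58, the promoter 48, the HSII 3′ amplicon of intron 2 35, and exon 3 27. In 103 cytosines the base lay in a primer site of each amplicon that covers it, where it comes from the oligo and not from the cells. 427 were inner cytosines, outside primers, and 7 were in a primer of one amplicon and inner in another.

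Depth differed widely between libraries. Reads summed over the non-CpG cytosines ran from 155378 in naïve library 2 to 11448841 in sgGata3-2. Median reads per cytosine ran from 223 to 17274 in the same libraries, with a median of 2249 over the 27 BS samples. At least 100 reads were reached at 396 to 537 cytosines (median 534). The second first-cycle TDG WT and iKO libraries were each run in 2 samples without CNS2. At naïve library 2's median depth 1 C read is already close to 0.5%. PCR reads carried no molecular identifiers, so the Wilson 95% intervals (CI) and the upper limits for counts of 0 (3 reads) cover counting error only.

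Nearly all non-CpG cytosines were read as T. The mean share of C reads over inner non-CpG cytosines was 0.237% ± 0.0380 (SD, n = 25 libraries), while the CpGs of the same reads had 53.9% ± 14.3. The lowest library was TET WT second cycle library 2 at 0.198%, and the highest was TDG iKO first cycle library 2 at 0.395%. CpGs ranged from 29.8% to 71.3%, and the CpG mean was 143 to 297 times the inner non-CpG mean of the same library (median 240). The highest CpG mean was TDG WT first cycle library 2, read without CNS2, whose CpGs are low. Library 1 of that group, read with CNS2, had 54.5%. Between 5 and 192 inner cytosines of a sample had no C read, and 2 to 17 reached 1%.

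Cytosines in primer sites had 0.0257% ± 0.00832, range 0.0140% to 0.0427%. Inner cytosines were thus higher than oligo-derived ones in 25 of 25 libraries, with a primer minus inner difference of -0.211 points ± 0.0338. The permutation test of signs gave p = 1e-05, the smallest its 100000 resamples can give. The paper used non-CpG sites to assess how well bisulfite conversion had worked. How much of the inner level is unconverted cytosine and how much is methylation was not tested.

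Group means of inner non-CpG cytosines lay within a few hundredths of a point of each other, apart from first-cycle TDG iKO, while CpGs moved far more. Naïve libraries had 0.268%, 0.256% and 0.233% (mean 0.252% ± 0.0180) with CpGs at 68.3%. Th2 libraries had 0.226%, 0.236% and 0.231% (mean 0.231% ± 0.00502) with CpGs at 57.5%. The WT second-cycle libraries, where CpGs were at 31.1% (TDG line) and 33.9% (TET line), had 0.221% and 0.208% in the TDG line and 0.218% and 0.198% in the TET line. These 4 libraries lay below each naïve library.

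With TET deleted the CpGs were at 68.5% in the first cycle and 64.5% in the second, against 48.4% and 33.9% in WT. The inner non-CpG values were 0.266% and 0.245% in TET iTKO and 0.239% and 0.231% in WT in the first cycle, and 0.233% and 0.224% against 0.218% and 0.198% in the second. Each pair of TET iTKO libraries lay above its WT pair. First-cycle TDG iKO had 0.225% and 0.395% and its WT 0.224% and 0.272%, so library 2 of each genotype, the one read without CNS2, was the higher. The runs of TDG iKO library 2 had 0.419% and 0.371%, and those of WT library 2 had 0.296% and 0.247%. Second-cycle TDG iKO had 0.217% and 0.214%, close to its WT. The single Gata3-experiment libraries had 0.207% (mock), 0.210% (sgGata3-1) and 0.227% (sgGata3-2), with CpGs at 49.1%, 59.3% and 58.5%.

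CHG cytosines carried slightly fewer C reads than CHH. Over the 537 cytosines within amplicons, CHG had 0.159% ± 0.0299 and CHH 0.207% ± 0.0333, and CHG was lower in 25 of 25 libraries. The difference was -0.0477 points ± 0.0220 (permutation test of signs, p = 1e-05, the smallest possible). Part of it lies in the primer sites: among inner cytosines the values were 0.217% at 102 CHG and 0.243% at 325 CHH, the difference was -0.0259 points, and CHG was lower in 19 of 25 libraries (permutation p = 0.00013). With the 6 cytosines outside amplicons kept, which only the Gata3-experiment libraries cover, the difference was -0.0257 points and missed the threshold (permutation p = 0.063). Both of these alternatives were chosen after seeing the data.

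CpA, the favoured dinucleotide of DNMT3 enzymes, was not the highest class. CpA had 0.169% ± 0.0321, and the average of the CpC level and the CpT level was 0.203%. The difference was -0.0338 points ± 0.0259 and was negative in 20 of 25 libraries (permutation test of signs, p = 1e-05, the smallest possible). With reads pooled over cytosines it was smaller, -0.0106 points, and negative in 17 of 25 libraries (permutation p = 0.0041). CpC had 0.184% ± 0.0272 and CpT 0.221% ± 0.0440. Among inner cytosines alone the order was the same, with 0.203% at 133 CpA, 0.227% at 120 CpC and 0.270% at 174 CpT. By trinucleotide, inner CAA was lowest at 0.171% ± 0.0591 and inner CTC highest at 0.335% ± 0.0904 (60 cytosines). The CTC level includes 6 of the 10 highest cytosines described below, and its rank without them was not tested. CAC, a favoured context of non-CpG methylation in neurons, had 0.215%, CAG 0.226%, CTG 0.215%, CCC 0.249% and CTT 0.258%. Closeness to a CpG came with no steady trend: the level was 0.231% at 1 to 2 bases from the nearest CpG (37 cytosines), 0.226% at 3 to 10 bases (171), 0.257% at 11 to 20 (87), 0.257% at 21 to 40 (102) and 0.183% at 41 to 134 (30).

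The regions differed little at non-CpG cytosines beside their differences at CpGs. CNS1 was the highest at 0.277% ± 0.0528 (range 0.218% to 0.436%), with CpGs at 64.5%. Exon 3 had 0.252% ± 0.0374 with CpGs at 95.9%, within 95.3% to 96.7% in each library. The intron 1 and exon 2 amplicon had 0.236% ± 0.0457 with CpGs at 77.8%, and the promoter 0.229% ± 0.0412 with CpGs at 37.8%. These regions span a wide range of CpG levels within a narrow band of non-CpG levels. HSII 3′ had 0.216% ± 0.0403 with CpGs at 61.1%, and exon 1 had 0.199% ± 0.0592 (24 libraries) with CpGs at 69.97%. CNS2 had 0.197% ± 0.0218 (23 libraries), with CpGs at 7.93%. Exon 1 and CNS2 were not read in the same libraries, and they are not ranked here.

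Inner non-CpG cytosines of CNS1, where CpGs lose methylation in Th2 cells, were at 0.384%, 0.316% and 0.277% in naïve libraries (mean 0.326%, CpGs 92.7%) and at 0.284% in Th2 (CpGs 79.0%). WT second-cycle means were 0.226% in the TET line (CpGs 30.7%) and 0.234% in the TDG line (CpGs 25.1%). This fall includes 5 cytosines called below, which fell by 0.567 to 3.68 points. They were called for falling in this comparison, and the rest of the region was not tested without them. TET iTKO was at 0.332% in the first cycle (CpGs 90.5%) and at 0.231% in the second (CpGs 88.8%). In second-cycle TET iTKO the CNS1 CpGs were thus near the naïve level and the non-CpG cytosines near the WT second-cycle level. First-cycle TDG iKO had 0.281% and 0.436% (mean 0.358%, CpGs 66.0%), and library 2 alone made this the highest group mean. The promoter ran another way by group mean, at 0.188% in naïve, 0.265% in second-cycle TDG WT and 0.223% in second-cycle TET WT libraries. Naïve libraries had 0.209%, 0.139% and 0.217%, the lowest being library 2, the least deep. Second-cycle TDG WT libraries had 0.276% and 0.254%, above each naïve library. Second-cycle TET WT libraries had 0.204% and 0.241%, which overlapped the naïve range.

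A few single cytosines stood above this floor. Among the 529 non-CpG cytosines with 100 reads in 20 or more libraries, mean C shares ran from 0.00764% to 2.76%, with a median of 0.188% and quartiles of 0.113% and 0.246%. 411 were at 0.1% or above, 233 at 0.2%, 12 at 0.5%, 2 at 1% and 1 at 2%. Of 63 CpGs under the same rule, 53 were at 2% or above, and their median was 59.3%. Of the 10 highest non-CpG cytosines, 7 were in CNS1. 6 were CpT, 2 CpC and 2 CpA.

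The sequences around 8 of these 10 are shown, so that their contexts can be compared. They are minus-strand bases of mm9, 5′ to 3′, with the named cytosines in capitals.
CNS1 amplicon 2, chr11:53440477-53440503: ttctgttgCtCtctcttCCtccccctc
CNS1 amplicon 3, chr11:53440288-53440304: ctgcattgCtcttcctg
promoter, chr11:53432489-53432505: ccctcggaCacctgtga
exon 1, chr11:53432067-53432083: tcatcctgCtcttcttt
exon 3, chr11:53427436-53427452: tggagctgCagagactc

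The pyrimidine-rich stretch of CNS1 amplicon 2 held 4 of the 10. Position 53440485, a CpT, had the highest mean of all, 2.76% ± 2.06 over 25 libraries (lowest 0%, median 2.54%, highest 7.005%). The CpG nearest to it, 22 bases away at 53440463, had a mean of 53.3%. At 53440485 the naïve libraries had 6.68% (77 of 1152 reads), 4.38% (6 of 137) and 2.41% (24 of 997), and the Th2 libraries 2.89%, 1.07% and 4.20%. First-cycle TET iTKO had 6.31% and 7.005% (290 of 4140 reads), and its WT had 3.81% and 3.83%. WT second-cycle libraries had 0.693% and 0.815% (TDG line) and 0.443% and 1.29% (TET line). These second-cycle WT libraries were thus below each naïve library and each first-cycle TET WT library. First-cycle libraries of the TDG line had 2.54% and 3.51% in WT and 0.955% and 4.33% in iKO. Second-cycle iKO libraries had 0% (0 of 432 reads) and 0.483%, and second-cycle TET iTKO 3.12% (17 of 544) and 0.465% (17 of 3658). The position was high in naïve and most first-cycle libraries and lower in most second-cycle libraries, and the ranges of the cycles overlapped.

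Its neighbours were lower. Position 53440495 had a mean of 0.731% ± 1.24 with a median of 0.486%, and its highest value, 6.35%, was naïve library 1. Position 53440493 had 0.642% ± 0.839 (median 0.318%, highest 3.68% from 5 of 136 reads in naïve library 2), and 53440486, a CpC beside 53440485, had 0.571% ± 0.581 (median 0.484%, highest 3.09%).

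Position 53440421, a CpC of CNS1, was the second highest at 1.11% ± 0.975 (0% to 3.49%, median 0.735%). It lies 2 bases from a primer site. Outside the first-cycle TDG libraries (0.170% to 0.633%) its level in the knockout experiments followed the library number more than the genotype: library 2 had 2.43% and 2.71% in first-cycle TET WT and iTKO, 2.46% and 1.75% in their second cycle, and 3.49% and 3.13% in second-cycle TDG WT and iKO. Library 1 of the same groups had 0.542%, 0%, 0.222%, 1.09%, 0.690% and 0.231%. What sets these libraries apart at this cytosine was not tested. Position 53440425, a CpT 4 bases on, had 0.526% ± 0.314 (highest 1.12%).

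The other high cytosines lay in separate amplicons. Position 53440296, a CpT of CNS1 amplicon 3, had 0.835% ± 0.779 (0.198% to 4.26%, median 0.714%). Position 53427444, a CpA in CAG context in exon 3, was the steadiest at 0.638% ± 0.243 (0% to 1.12%, median 0.642%), and its nearest CpG had 95.5%. Position 53432075, a CpT of exon 1, had 0.548% ± 0.666 over 24 libraries, and 53432497, a CpA of the promoter, had 0.517% ± 0.478. The SD was above the mean at 53440495, 53440493, 53440486 and 53432075.

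The comparison of naïve with first-cycle Th2 cells asks what the first days of Th2 growth do at Il4. No non-CpG cytosine passed the test. The quasi-binomial test called 0 of 439 non-CpG cytosines and 27 of 56 CpGs, each lower in Th2. Over all 495 cytosines tested 5.45% were called. The smallest adjusted p of a non-CpG cytosine was 0.0961, 18 had an unadjusted p under 0.05, and limma called 0 (20 at an unadjusted p under 0.05). Without naïve library 1 or Th2 library 1 the count was 1, and without naïve library 3 or Th2 library 3 it was 3.

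Over the 344 inner cytosines covered in each library the mean was 0.278%, 0.256% and 0.251% in naïve and 0.245%, 0.253% and 0.243% in Th2. The groups overlapped, and Th2 minus naïve was -0.0143 points (two-sided exact permutation p = 0.2, where 3 against 3 libraries cannot go below 0.1; adjusted p = 0.467 over 7 comparisons). CpGs in the same test went from 67.3% to 56.7%. Without naïve library 1 the difference was -0.00615 points. As a median over cytosines it was 0.0635 points, the opposite direction, with a median of 0% in naïve library 2.

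Between naïve cells and WT second-cycle Th2 cells, where CpG loss was at its furthest, 6 non-CpG cytosines fell and none rose. These were 6 of 439 tested (1.37%), beside 41 of 56 CpGs, and over all cytosines tested 9.49% were called. At an unadjusted p under 0.05 there were 24 of the 439, near the share that chance alone gives. The smallest was 5.43e-05 (quasi-binomial test). The adjusted p values, here and below, rank non-CpG cytosines together with the CpGs, so CpG calls ease the threshold for the others. An adjustment over non-CpG cytosines alone was not run. By limma 14 were called, among them 3 of the 6. The naïve libraries here are the ones used against first-cycle Th2 cells, and the second-cycle libraries return in the next comparisons.

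The largest fall was at 53440485, from a naïve mean of 4.49% to 0.810%. It fell by 3.68 points (adjusted p = 0.00332), and the groups did not overlap. Its nearest CpG, 22 bases away, fell from 86.7% to 18.7%. At 53440495 the naïve libraries had 6.35%, 0.735% and 0.606% and the second-cycle ones 0.231%, 0.272%, 0% and 0.636%, so one second-cycle library lay within the naïve range. It fell by 2.28 points (adjusted p = 0.00221). Position 53440493 had 2.26%, 3.68% and 0.504% in naïve and 0.462%, 0.239%, 0% and 0.138% in second-cycle cells, without overlap, and fell by 1.94 points (adjusted p = 0.000672).

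Another CNS1 cytosine, 53440634 in CpA context, kept its call whichever library was left out and lost it with replicate number as a block. Its values were 1.37%, 0.505% and 1.05% in naïve and 0%, 0.0931%, 0.108% and 0.0568% in second-cycle libraries, a clean gap, and it fell by 0.909 points (adjusted p = 0.000974). In first-cycle Th2 libraries it was at 0%, 0.888% and 1.45%. Its nearest CpG fell from 95.5% to 17.7%. Position 53431825, a CpA of intron 1, had 0.142%, 1.66% and 0.977% in naïve and 0.0557%, 0.0747%, 0.0961% and 0.0627% in second-cycle libraries, and fell by 0.852 points (adjusted p = 0.00487). The sixth, 53440752, also CpA, lies outside the naming rule and is named after its values were seen: it had 0.480%, 0.551% and 1.14% against 0.253%, 0.134%, 0% and 0.242%, and fell by 0.567 points (adjusted p = 0.0446).

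The 3 CpA cytosines are shown in capitals, on the minus strand.
CNS1 amplicon 1, chr11:53440627-53440641: tcggctcCacccaaa
CNS1 amplicon 1, chr11:53440745-53440759: ggtcccgCactttag
intron 1, chr11:53431818-53431832: ctacttcCaccttgg

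Single libraries decided most of these calls. Without naïve library 1 the calls at 53440485, 53440495 and 53440493 were lost and 3 of the 6 cytosines were still called. Without naïve library 3 the count was 4 and 53431825 was among those lost, and 53440752 was called in 1 of 7 such fits. With a minimum of 500 reads 1 cytosine was called, 53431825. It was the only one of the 6 with that depth in each library, so the others could not be tested. With replicate number as a block 53440485 and 53440493 were called and the other 4 were not. In the TAPS libraries described below, 3 of the 6 were called in the opposite direction between naïve and Th2 cells: 53440634 (0.140% to 4.70%), 53440752 (0.214% to 5.58%) and 53440493 (0% to 1.55%).

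Over 344 inner cytosines the WT second-cycle libraries had 0.225% and 0.220% (TDG line) and 0.236% and 0.206% (TET line), each below the lowest naïve library. The difference was -0.0398 points (exact permutation p = 0.0286, the smallest 3 against 4 libraries can give; adjusted p = 0.1). The CpGs went from 67.3% to 31.5%. The difference between medians over cytosines was 0.0569 points, the other way. Naïve library 2, the least deep, had no C read at over 50% of its inner cytosines (192 of 344) and a median of 0%, and the other naïve libraries had medians of 0.177% and 0.186%.

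The second cycle against the first in WT cells asks what further division and restimulation add. It uses the WT libraries of the TDG and TET lines, 4 in each cycle, and not the 3 other Th2 libraries. Here 3 of 400 non-CpG cytosines fell (0.75%), none rose, and 37 of 46 CpGs fell. Over all cytosines tested 8.97% were called. Of the 400, 15 had an unadjusted p under 0.05, fewer than chance alone gives, and the smallest was 0.000579 (quasi-binomial test). The 3 calls rest on the adjustment that includes the CpGs. By limma 27 were called, which held the 3, with 22 lower and 5 higher.

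Position 53440485 had 2.54%, 3.51%, 3.81% and 3.83% in first-cycle libraries and 0.693%, 0.815%, 0.443% and 1.29% in second-cycle ones, without overlap. Of the 3 Th2 libraries not compared here, 1 had 1.07%, below the highest second-cycle value. The position fell by 2.61 points (adjusted p = 0.00718) and was called in each fit with a library left out. Position 53440545, a CpA of CNS1, had 0.518%, 0.906%, 0.562% and 0.205% against 0%, 0.136%, 0% and 0.0861%, also without overlap, and fell by 0.492 points (adjusted p = 0.0201). Position 53432066, a CpT of exon 1, had 0%, 1.75% (43 of 2464 reads), 0.609% and 0.580% against 0%, 0.320%, 0% and 0.181%, so its groups overlapped. It fell by 0.608 points (adjusted p = 0.0229).

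The calls at 53440545 and 53432066 were lost without first-cycle TDG WT library 2 (2 cytosines called) or without second-cycle TET WT library 2 (1 called), and that at 53432066 also without second-cycle TET WT library 1 (2 called). Without first-cycle TET WT library 2 the count was 6. Over 317 inner cytosines the means were 0.230%, 0.274%, 0.244% and 0.245% in the first cycle and 0.215%, 0.218%, 0.222% and 0.213% in the second. The groups did not overlap, at a difference of -0.0314 points (exact permutation p = 0.0286, the smallest 4 against 4 libraries can give; adjusted p = 0.1), while CpGs went from 67.4% to 42.6%. Without first-cycle TDG WT library 2 it was -0.0188 points.

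The TET comparisons ask what is lost when TET proteins are absent. In the first cycle, 7 of 481 non-CpG cytosines were called (1.46%), 5 higher and 2 lower in TET iTKO, beside 31 of 60 CpGs, each higher. Over all cytosines tested 7.02% were called. Of the 481, 26 had an unadjusted p under 0.05, near the share that chance alone gives, and the smallest was 0.000148 (quasi-binomial test). The 7 calls were made with the adjustment that includes the CpGs, and which of them would pass without the CpGs was not tested. By limma 52 were called, which held the 7, with 21 higher and 31 lower.

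The largest rise was at 53440296 in CNS1, with 0.525% and 0.225% in WT and 4.26% (151 of 3542 reads) and 1.25% (821 C reads, at the depth limit of the files) in TET iTKO. It rose by 2.38 points (adjusted p = 0.00334), while its nearest CpG went from 83.6% to 94.6%. In naïve libraries this cytosine had 0.714%, 0.960% and 0.609%, and in second-cycle TET iTKO 1.05% and 0.391%. Position 53432445 of the promoter had 0.0956% and 0.199% in WT and 1.64% and 0.732% in iTKO, and rose by 1.04 points (adjusted p = 0.0135). At these positions both iTKO libraries were above both WT libraries.

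The remaining rises came mainly from iTKO library 2. Position 53432090 of exon 1 had 0% in both WT libraries (0 of 492 and 0 of 1902 reads) and 0.238% and 1.96% in iTKO (adjusted p = 0.00378). Position 53432267 had 0.146% and 0.126% in WT and 0% (0 of 524 reads) and 1.90% in iTKO (adjusted p = 0.00449), and the groups overlapped. Position 53432210 had 0.292% and 0.0943% against 0.380% and 1.23% (adjusted p = 0.0366). The 2 falls were in intron 1: 53431822 with 0.854% and 0.506% in WT and 0.110% and 0.136% in iTKO (adjusted p = 0.0464), and 53431804 with 0.269% and 0.855% against 0% and 0.0863% (adjusted p = 0.00776). Its nearest CpG went up, from 78.6% to 91.1%.

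The 7 called cytosines are shown to compare their contexts, in capitals, minus strand.
CNS1 amplicon 3, chr11:53440289-53440303: tgcattgCtcttcct
promoter, chr11:53432438-53432452: ccctacgCtgataag
exon 1 amplicon, chr11:53432260-53432274: agaataaCtgacaat
exon 1 amplicon, chr11:53432203-53432217: gtttcagCaacttta
exon 1, chr11:53432083-53432097: cccccagCtagttgt
intron 1, chr11:53431815-53431829: cttccacCttggagg
intron 1, chr11:53431797-53431811: agggagtCtcccggg

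Without first-cycle TET WT library 2, 2 cytosines were called and none of the 7 was among them. Without TET iTKO library 1, 5 were called, and 53431804, 53432445 and 53431822 lost theirs. Without TET iTKO library 2, 11 were called, and 53432090, 53432210, 53432267 and 53431822 lost theirs. The call at 53431822 was also lost without TET WT library 1 (8 called). With replicate number as a block 0 were called. Over 379 inner cytosines WT had 0.244% and 0.239% and iTKO 0.266% and 0.257%, a difference of 0.0197 points (exact permutation p = 0.333, the smallest 2 against 2 libraries can give; adjusted p = 0.467), with CpGs at 50.4% and 69.6%. Without iTKO library 1 it was 0.0122 points, and as a median over cytosines it was -0.0215 points, the opposite direction.

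In the second cycle 6 of 482 non-CpG cytosines were higher in TET iTKO (1.24%) and none lower, beside 40 of 60 CpGs, each higher. Over all cytosines tested 8.49% were called. Of the 482, 23 had an unadjusted p under 0.05, near the share that chance alone gives, and the smallest was 9.5e-06 (quasi-binomial test). The 6 calls were made with the adjustment that includes the CpGs, and which of them would pass without the CpGs was not tested. By limma 49 were called, which held the 6, with 26 higher and 23 lower.

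Most of the rise was in iTKO library 2. At 53431989 of exon 1 WT had 0% (0 of 595 reads) and 0.160%, and iTKO had 0% (0 of 197 reads) and 3.53% (55 of 1556). It rose by 1.69 points (adjusted p = 0.000172), and its nearest CpG went from 8.42% to 81.3%. At 53432010 WT had 0% and 0.0779% and iTKO 0% (0 of 201) and 2.76% (44 of 1592), a rise of 1.34 points (adjusted p = 0.00278). Th2 library 2, of the first cycle and with no deletion, also reached 1.51% there. At 53432022 WT had 0% and 0.233% and iTKO 0.498% (1 of 201) and 2.95% (47 of 1593), a rise of 1.61 points (adjusted p = 0.0201). These 3 exon 1 cytosines lie within 33 bases of each other, and at 2 of them iTKO library 1 had no C read.

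At 2 others both iTKO libraries were above both WT libraries. Position 53440534 of CNS1 had 0% and 0.103% in WT and 0.371% and 1.07% in iTKO (adjusted p = 0.0137), and 53432507 of the promoter had 0.101% and 0.134% against 0.483% and 0.845% (adjusted p = 0.0350). The sixth, 53432207, outside the naming rule and named after its values were seen, had 0.242% and 0.137% in WT and 0% (0 of 263 reads) and 1.46% in iTKO (adjusted p = 0.00929).

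The 3 neighbouring exon 1 cytosines are shown in capitals, minus strand.
exon 1, chr11:53432015-53432029: aaaatcaCttgagag
exon 1, chr11:53432003-53432017: gagagatCatcggca
exon 1, chr11:53431982-53431996: acgaggtCacaggag

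Without second-cycle TET iTKO library 2, 4 cytosines were called and none was among the 6. Without TET WT library 2, 3 were called, 53431989 alone among the 6, and without TET WT library 1 there were 5, with 4 of the 6. With replicate number as a block the count was 0. At 500 reads or more it was 1, at 53432507, the only one of the 6 with that depth in each library. Over the inner cytosines WT had 0.220% and 0.206% and iTKO 0.233% and 0.221%, a difference of 0.0138 points (exact permutation p = 0.333, the smallest 2 against 2 libraries can give; adjusted p = 0.467), with CpGs at 35.3% and 65.6%. The direction turned in 3 alternatives. The difference was -0.00642 points at 500 reads or more and -0.0107 as a median over cytosines. With the called cytosines left out (chosen after seeing the data) it was -0.00315. That alternative cannot tell where the rise lies. Each called cytosine was higher in TET iTKO, so leaving them out must lower the difference. The difference was 0.0207 points without TET WT library 1, 0.00681 without TET WT library 2 and 0.00796 without iTKO library 1. The WT second-cycle libraries are shared with the comparisons above.

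The TDG comparisons ask the same of TDG. In the first cycle the quasi-binomial test called 0 of 400 non-CpG cytosines and 0 of 46 CpGs (0% of all cytosines tested). 13 non-CpG cytosines had an unadjusted p under 0.05, the smallest adjusted p was 0.989, and limma called 35 (113 unadjusted). Over 312 inner cytosines WT had 0.229% and 0.272% and iKO 0.238% and 0.397%. The groups overlapped, at a difference of 0.0669 points (exact permutation p = 0.667; adjusted p = 0.778; 2 against 2 libraries cannot go below 0.333), with CpGs at 71.0% and 68.9%. Without TDG iKO library 2 the value was -0.0145 points, without iKO library 1 0.146 points, and without WT library 1 0.0452 points.

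In the second cycle 0 of 534 non-CpG cytosines and 0 of 63 CpGs were called by the quasi-binomial test (0% of all cytosines tested), 17 had an unadjusted p under 0.05, the smallest adjusted p was 0.0727, and limma called 24 (81 unadjusted). Over 424 inner cytosines WT had 0.221% and 0.210% and iKO 0.217% and 0.216%, a difference of 0.0012 points (exact permutation p = 1), with CpGs at 30.7% and 31.1%. It was -0.00447 points without WT library 2 and 0.00688 points without WT library 1. Without iKO library 1 it was 0.000603 points and without iKO library 2 0.0018.

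Across the 4 comparisons with calls there were 22 calls at 21 inner cytosines, 53440485 being called in 2. Differences ran from 0.492 to 3.68 points with a median of 0.881, and no group mean was above 4.49%. The shares called, 0.75% to 1.46%, were below those of all cytosines tested, which the CpGs made up in the main.

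PB sequencing reads as T what carries 5-formylcytosine or 5-carboxylcytosine, the bases TDG removes. Its T share is given with C reads halved, the scale the methods define for PB. The PB reads covered 403 non-CpG cytosines and 47 CpGs, at median depths of 6571 to 12732 reads. In the CreERT2 line the inner non-CpG mean was 0.265% in WT and 0.259% in TDG iKO, and the CpGs had 0.411% and 1.47%. In the CD4-Cre line the inner non-CpG mean was 0.265% in WT and 0.323% in KO, and the CpGs had 0.318% and 2.46%. In both lines the CpGs of TDG-deleted cells were several times higher than those of WT, and the non-CpG means of the genotypes differed by less than 0.1 point.

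The runs of the CreERT2 libraries differed more than the genotypes did. Run 1 had 0.345% in WT and 0.344% in iKO, and run 2 had 0.189% and 0.187%. Cytosines in primer sites had 0.187% and 0.186% in run 1 and 0.0329% and 0.0325% in run 2. CHG and CHH had 0.217% and 0.238% in CreERT2 WT, 0.194% and 0.238% in iKO, 0.213% and 0.219% in CD4-Cre WT, and 0.198% and 0.287% in KO. CHH was above CHG in each library. Within CNS1 the CreERT2 libraries had 0.290% and 0.281% beside CpGs at 0.466% and 2.19%, and the CD4-Cre libraries 0.237% and 0.302% beside CpGs at 0.279% and 4.78%. The other regions differed between the CD4-Cre libraries in both directions: exon 3 had 0.299% in WT and 0.670% in KO, and HSII 3′ had 0.461% and 0.298%. In the CreERT2 line exon 3 had 0.267% and 0.221%.

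With 1 library a group, Fisher's exact test compares libraries and not conditions, and a cytosine was called at an adjusted p under 0.05 and a difference of at least 1 point. In the CreERT2 line 0 of 403 non-CpG cytosines were called by Fisher's exact test, beside 17 of 47 CpGs, each higher in iKO, and over all cytosines tested 3.78% were called. 86 had an unadjusted p under 0.05, and the largest difference was 0.693 points. Without the 1-point minimum 54 were called, 23 higher and 31 lower. In the CD4-Cre line 19 of 403 were called (4.71%), 8 higher and 11 lower in KO, beside 23 of 47 CpGs, each higher. Over all cytosines tested 9.33% were called. Without the 1-point minimum 121 were called, 77 higher and 44 lower, so the balance of directions depended on it. With C reads not halved 3 non-CpG cytosines were called. With the 1-point minimum the CpG calls were all higher in TDG-deleted cells, and without it 4 CpGs in each line were lower.

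At these 19 cytosines the library with more T had 1.08% to 2.68% (median 1.502%) and the other 0% to 0.270% (median 0.0907%). 11 were CpC, 4 CpA and 4 CpT. The largest rise was at 53427454, a CpA of exon 3, from 0.0691% (CI 0.0335% to 0.143%) to 2.68% (CI 2.32% to 3.10%), adjusted p = 1.01e-60. The CreERT2 runs had 0.311% and 0.317% in WT and 0.383% and 0.179% in iKO there, and its nearest CpG had 0.0888% and 0.0153% in the CD4-Cre libraries. The rise at 53427454 thus had no counterpart at its CpG. The other large rises were at 53431723 (0.0907% to 2.31%), 53440635 (0.0976% to 1.82%), 53440510 (0% to 1.64%) and 53440446 (0% to 1.64%). The largest fall was at 53440483 in CNS1, from 2.44% of 810 reads to 0% of 603 (adjusted p = 0.0199), where the CreERT2 runs had 0.492% and 0.459% in WT and 0.447% and 0.596% in iKO. Further falls were at 53432523 (2.11% to 0.157%), 53432221 (1.79% to 0%), 53432024 (1.49% to 0.0505%) and 53432096 (1.42% to 0.151%). At 53427454 and 53440483 the high value stood in 1 CD4-Cre library and in no CreERT2 run.

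By mean T share over the PB libraries, 53440420 was highest at 2.19%, beside 53440421, which was high by BS. Its CreERT2 runs had 0.979% and 0.699% in WT and 0.537% and 0.566% in iKO, and its CD4-Cre libraries 1.96% (5 T reads of 505) and 5.39% (11 of 397, CI 3.04% to 9.40%). That pair rests on few T reads and was not called. Position 53430219 of HSII 3′ had 0.534% and 0.192% in CreERT2 WT, 0.176% and 0.0398% in iKO, and 1.05% and 1.47% in CD4-Cre WT and KO. Position 53427444 of exon 3 had 0.365% and 0.176%, 0.256% and 0.244%, and 1.39% and 0.989% in the same order. It was also among the 10 highest by BS. At both, the CD4-Cre libraries were above the CreERT2 runs in either genotype.

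Of the 5 PB cytosines with the highest means, 4 are shown in capitals, minus strand.
CNS1, chr11:53440476-53440490: tcttcctCcccctcc
exon 3, chr11:53427447-53427461: gtgttctCatggagc
HSII 3′, chr11:53430212-53430226: agggcagCtgtaaga
exon 3, chr11:53427437-53427451: ggagctgCagagact

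In TAPS, where methylated cytosine reads as T, the CpGs had 92.8% in naïve and 70.7% in Th2 cells. Inner non-CpG cytosines had a mean of 0.553% and 0.516%, and a median over cytosines of 0.103% and 0.108%. The mean stood well above the median because a small set of cytosines was high: 30 in naïve and 29 in Th2 reached 1%. Cytosines in primer sites had 0.0303% and 0.0299%. C reads were halved as for PB, which is a choice made here, since the methods do not describe TAPS. It raises low T shares: without it the largest difference between the libraries was 8.097 points in place of 14.96, and 39 non-CpG cytosines were called in place of 49. The CpGs also depend on it: their medians in naïve and Th2 cells were 97.1% and 71.6% with it and 94.3% and 55.7% without it.

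Context and region differed between the 2 TAPS libraries in no single direction. CHG had 0.351% in naïve and 0.459% in Th2, and CHH 0.481% and 0.402%. CpA had 0.717% and 0.405%, CpC 0.411% and 0.477%, and CpT 0.266% and 0.383%. By region, CNS1, intron 1 and exon 3 were close between the libraries and the others were not. CNS1 had 0.744% and 0.640%, the intron 1 and exon 2 amplicon 0.417% and 0.491%, and exon 3 0.665% and 0.714%. The promoter had 0.159% and 0.467% and exon 1 0.125% and 0.368%, lower in naïve, while HSII 3′ had 1.53% and 0.103%, higher in naïve. Medians over cytosines were close in these regions, at 0.106% and 0.112% (promoter), 0.0694% and 0.0667% (exon 1) and 0.0941% and 0.0977% (HSII 3′), so the differences in means lie in a small number of cytosines.

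Fisher's exact test called 49 of 403 non-CpG cytosines between these libraries (12.2%), 24 higher and 25 lower in Th2, beside 41 of 47 CpGs, 40 of them lower. Over all cytosines tested 20% were called. 28 of the 49 were in CNS1, which holds 136 of the 321 inner cytosines. The library with more T had 1.30% to 15.2% (median 4.70%), and the other had 0% to 2.35% (median 0.125%) and was under 0.5% at 45 of the 49. These cytosines were thus high in one library and near the floor in the other. In the 6 naïve and Th2 BS libraries, where a methylated cytosine would read as C, the same 49 had 0% to 3.68% with a median of 0.193%.

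The highest was 53431715, a CpA at the edge of exon 2, with 15.2% in naïve (CI 13.8% to 16.6%, 4428 reads) and 0.201% in Th2 (CI 0.0861% to 0.471%, 4959 reads; adjusted p = 1.12e-108). By BS it had 0.242%, 0.313% and 0.1005% in naïve and 0.175%, 0.106% and 0.137% in Th2, and the nearest CpG had 93.9% and 90.3% by TAPS. The next falls were at 53440706 (12.5% to 0.150%), 53440630 (11.1% to 0.125%), 53440670 (10.6% to 0.0676%) and 53430273 of HSII 3′ (8.31% to 0.0977%). At 53440706 the BS libraries had 0.0840%, 0% and 0.0734% in naïve and 0.159%, 0% and 0.141% in Th2. At these positions the TAPS share in naïve cells was far above the BS share.

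In Th2 cells 53440769 of CNS1 had the largest rise, from 0.0642% to 9.48%, with BS values of 0.0961%, 0.275% and 0.127% in naïve and 0.0372%, 0.0744% and 0.423% in Th2. Position 53427417, a CpT of exon 3, had 2.14% in naïve and 10.6% in Th2 by TAPS, and 0.0425%, 0.627% and 0.329% against 0.153%, 0.289% and 0.149% by BS. The others were 53431682 (0.316% to 8.06%), 53440691 (0.0741% to 5.89%) and 53431716 (0.0903% to 5.87%). The last is the base next to 53431715, and the pair moved in opposite directions.

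The 5 cytosines with the highest TAPS means are shown in capitals, minus strand.
exon 2, chr11:53431708-53431722: aagacgcCatgcacg
exon 3, chr11:53427410-53427424: tcgatgcCtggattc
CNS1, chr11:53440699-53440713: accttccCccacagt
CNS1, chr11:53440623-53440637: ctccaccCaaaagcg
CNS1, chr11:53440663-53440677: taaaagtCacgaggc

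The Gata3 guides ask what loss of GATA3, the factor that drives Th2 fate, does at Il4. With sgGata3-1 Fisher's exact test called 2 of 537 non-CpG cytosines (0.372%) and 52 of 64 CpGs, 51 of them higher than mock, and over all cytosines tested 8.99% were called. Position 53440651 of CNS1 went from 1.23% in mock (CI 1.11% to 1.37%) to 0.208% (adjusted p = 4.18e-50), and 53432223 from 0.0569% to 1.25% (adjusted p = 1.59e-10). With sgGata3-2 it called 2 of 537 and 52 of 64 CpGs, each higher, and 8.99% of all cytosines tested. Position 53431825 went from 0.0786% to 1.26% (adjusted p = 2.39e-62), and 53440485 from 2.03% (CI 1.75% to 2.35%) to 4.49% (CI 4.10% to 4.91%; adjusted p = 3.21e-20). With sgGata3-1 these had 0.627% and 1.34%. Without the 1-point minimum 108 non-CpG cytosines were called with sgGata3-1 (59 higher, 49 lower) and 124 with sgGata3-2 (70 higher, 54 lower). The guides share the mock library, and at 53440485 they lay on either side of it.

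The 6 cytosines outside the amplicons lie 2 to 10 bases past an end of CNS2 amplicon 2, and 100 reads were reached there in the 3 Gata3-experiment libraries only. They are shown because 3 of them were read almost wholly as C, unlike the cytosines within amplicons. The capitals mark the 3 read as C (minus strand).
beside CNS2 amplicon 2, chr11:53419403-53419421: aatttCccCagccCtccca
Positions 53419408, 53419413 and 53419416 were read as C in 99.5% to 100% of 126 to 410 reads, for example 100% of 135 reads at 53419408 in mock (CI 97.2% to 100%). Positions 53419409, 53419414 and 53419415, their neighbours, had 0% to 0.267% of 131 to 409 reads. Each of the 6 was near one extreme or the other in all 3 libraries, whereas no inner cytosine was above 7.005% in a BS library. What these bases come from was not tested, and they are left out of the means above.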

How the data were processed

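The authors aligned the reads to mm9 with BSMAP and deposited C and T read counts per cytosine, with context, for each sample. Percent C in BS is C over C + T. In PB, C counts were halved, following the methods, and percent T is T over T plus the halved C; TAPS was treated alike by choice. Counts stop at 65535 in the deposited files, which 9 samples reach. Repeat runs of a library were summed for single cytosines and for PB library levels, and averaged for BS library means.

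Cytosines needed 100 reads in each library compared. Each BS site was tested by a quasi-binomial model with Williams weights over the 22 libraries of the 10 naïve and Th2 groups with more than 1 library, its dispersion moderated by limma 3.58.1 (squeezeVar, never below 1), two-sided F-test, Benjamini-Hochberg adjustment over all cytosines tested, threshold 0.05. limma on log2 odds, replicate blocks, other depth minima and leaving out each library were the alternatives. With 1 library left in a group, it was assumed to vary like the others. Library means were compared by exact permutation and contexts by sign permutation over libraries, among the 537 cytosines within amplicons, primer sites included. Single libraries were compared by Fisher's exact test. The code was tested on simulated data. Python 3.11.15, numpy 2.4.6, pandas 2.3.3, scipy 1.17.1 and R 4.3.3 were used.

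Named were the 10 highest non-CpG cytosines by mean percent C among those with 20 or more libraries, up to 5 called rises and 5 called falls per comparison, the 5 highest by mean percent T in PB and in TAPS, and their nearest CpGs. The members and lists were chosen with earlier results of these data known.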

Additional observations from a re-analysis of the deposited data

Results flagged for a closer look

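Class means, region means and single cytosines were examined in 75 sets of 4 WT libraries, and in 3, each a single cytosine, the highest library stood far from the other 3. Chance does this in about 1 in 20 sets by the nominal rate of the rule, which was not measured on these data. At 53432010, second-cycle TDG WT library 2 had 0.563% where the others had 0% to 0.0779%. At 53432090, second-cycle TET WT library 2 had 1.26% against 0% to 0.0795%. At 53440421, first-cycle TET WT library 2 had 2.43% against 0.170% to 0.542%.

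At 2 cytosines called in the first cycle the TET iTKO libraries lay on one side of WT in that cycle and on the other in the second. At 53431804 the TET iTKO minus WT difference was -0.519 points in the first cycle and 0.158 in the second. At 53432210 it was 0.612 and -0.167 points. The difference between the cycles was not tested.

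Plus-strand non-CpG cytosines, which the comparisons do not use, also gave T reads in PB and TAPS. In the CreERT2 line run 1 had 0.629% in WT and 0.587% in TDG iKO, and run 2 had 0.213% and 0.203%. The CD4-Cre libraries had 0.369% in WT and 0.272% in KO. TAPS had 0.848% in naïve and 0.564% in Th2 cells. Plus-strand CpGs had 0.283% to 0.601% in the WT PB libraries, 1.68% to 3.27% in the TDG-deleted ones, and 91.0% and 73.4% in TAPS.

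Bone marrow-derived macrophage samples, whose amplicons lie elsewhere, held a small number of reads at the non-CpG cytosines of the Il4 window. There were 745 in the first 0 h sample, 1334 and 85 in the 6 h samples and 295 in the first 24 h sample. C reads made up 436 of the 745, 456 of the 1334, 0 of the 85 and 78 of the 295. No cytosine had more than 16 reads in such a sample.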

How the results depend on the processing

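Counts of called non-CpG cytosines between groups stayed within 1.5 times the reported count in 49 of 74 alternatives and moved further in 25. With limma the counts were 14 (naïve to WT second cycle), 27 (WT second to first cycle), 52 and 49 (TET, first and second cycle) and 35 and 24 (TDG). With 500 reads they were 1 (naïve to WT second cycle), 0 (WT second to first cycle) and 1 (TET second cycle), where fewer cytosines could be tested. Fitting only the compared groups gave 3 and 4 for TDG in the first and second cycle, and runs as separate replicates gave 5 for WT second to first cycle. Leaving out 1 library gave 0 to 3 (naïve to Th2), 3 to 6 (naïve to WT second cycle), 1 to 6 (WT second to first cycle), 2 to 11 (TET first cycle) and 3 to 9 (TET second cycle).

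With replicate number as a block the counts were 2 (naïve to WT second cycle) and 0 in both TET comparisons. Labels give samples a number and no pairing. Residual correlations between libraries that share a number ran from -0.374 to 0.349 over the comparisons at non-CpG cytosines, and not every such pair was above 0.1.

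The difference in mean percent C kept its sign in 76 of 85 alternatives and turned in 9. As a median over cytosines it was 0.0635 (naïve to Th2), 0.0569 (naïve to WT second cycle), -0.0215 and -0.0107 (TET, first and second cycle) and -0.00685 points (TDG second cycle). In the naïve comparisons naïve library 2 had a median of 0%, the others 0.177% and 0.186%. The TET second-cycle value was -0.00642 with 500 reads and -0.00315 with called cytosines left out, chosen after seeing the data. Leaving out 1 library gave -0.0145 to 0.146 (TDG first cycle) and -0.00447 to 0.00688 (TDG second cycle).

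Context differences held in 18 of 19 alternatives; CHG minus CHH with cytosines outside amplicons kept, chosen after seeing the data, was -0.0257. Pooled reads gave -0.0106 for CpA minus the average of CpC and CpT. Counts between single libraries held in 13 of 18. Without the 1-point minimum they were 54 and 121 (PB, CreERT2 and CD4-Cre lines), 108 (sgGata3-1) and 124 (sgGata3-2), and with C not halved 3 (PB, CD4-Cre) and 39 (TAPS). Beyond what an alternative's own construction shows, the cause was not tested. Naïve library 2 is the least deep, and shares near the floor rest there on 1 or a few C reads.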
